A study of Homo sapiens with 12 samples.

Results

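RNA recovered with tagged S38D RPL12 from 80S ribosome fractions was compared with the RNA of the same fractions before immunoprecipitation (IP). The comparison takes the S38D IP libraries and the S38D input libraries, joined by the number in their titles, which are 4 of the 12 libraries of the study. The other 8 libraries are the same design with wild-type (WT) and S38A RPL12. They are used to show where S38D differs. They also enter the choice of genes tested, the scaling and the estimate of spread behind the S38D calls. Their inputs are used to rank genes by level. The study asked how phosphorylation of RPL12 bears on translation in mitosis.

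RPL12, also called uL11, belongs to the large ribosomal subunit. It lies at the base of the stalk that contacts the translation factors which hydrolyse GTP. Serine 38 of RPL12 is a phosphorylation site. Aspartate in its place (S38D) carries a negative charge and is used as a stand-in for the phosphorylated residue, and alanine (S38A) cannot be phosphorylated. An 80S fraction of a sucrose gradient holds mRNAs that carry a single ribosome as well as ribosomes without mRNA.

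Every library came from HEK293, an established human embryonic kidney line, in its Flp-In T-REx form. The lines stably overexpressed RPL12 with a FLAG/HA tag as WT, S38A or S38D, and were expanded from monoclonal colonies under hygromycin. The labels do not say how many colonies each line represents, and they do not describe removal of the cells' own RPL12, so untagged ribosomes may be present in each fraction. All fractions received cycloheximide, which halts elongating ribosomes. RNA from 50 µl of each 1 ml pooled fraction gave the input library, and anti-FLAG IP of the remainder gave the IP library. Polyadenylated RNA was sequenced. No IP from cells without the tag was analysed here, so recovery by the tagged protein and recovery by the beads cannot be told apart. The labels do not say that numbers 1 and 2 are separate cultures, and the spread that p-values are based on may therefore be technical. Gene symbols are not paired with the identifiers in the files, so the levels of RPL12 itself and of HEK293 markers were not analysed here, and genes are given by Ensembl identifier.

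The S38D inputs held 8423735 and 8150252 reads in genes, and the S38D IP libraries 4390785 and 3695441. Across the study inputs held 7434431 to 8723130 and IP libraries 3186164 to 7430881, so the S38D IP values rest on fewer reads than the inputs they are set against. ERCC spike-in RNA, a set of 92 synthetic transcripts, was added to the inputs in equal amounts per the labels, and the text used here does not give the amount for IP RNA. Spike-ins made up 0.350% and 0.330% of all reads in the S38D inputs, against 3.79% and 5.18% in the S38D IP libraries. The exact Clopper-Pearson 95% intervals of the IP values were 3.776% to 3.811% and 5.160% to 5.204%, and cover counting error only.

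The S38D IP differed from its input in many genes, by modest amounts. Among 16920 genes tested, 1809 rose in the IP (10.7% of those tested) and 1570 fell (9.28%), together 20.0%. The test was edgeR's quasi-likelihood test with Benjamini-Hochberg adjustment, with calls at an adjusted p under 0.05. Each gradient fraction, given by form and number together, was a block. The 1809 genes that rose had a median change of 1.60-fold, and the 1570 that fell a median of 1.59-fold. A change of at least 1.5-fold was seen in 1179 of the genes that rose and 1021 of those that fell. At least 2-fold was reached by 335 and 259. Among genes with a mean of at least 5 CPM (read counts relative to library size) over the S38D libraries, 10 rose at least 4-fold and 0 of the called genes fell that far. The middle of the distribution was narrow: 80% of the genes that rose lay between log2 changes of 0.43 and 1.22, and 80% of those that fell between -1.14 and -0.45.

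The count of calls moved in both directions with the fit and its libraries. With no replicate block, 824 genes were called, and all 824 were among the paired calls. DESeq2 called 2000. The fit of only the 4 S38D libraries called 6578, and leaving out WT replicate 1 or WT replicate 2 gave 6423 in each case. Leaving out an S38A replicate gave 2136 and 1950. Leaving out S38D fraction 1 left 234 calls, and leaving out S38D fraction 2 left 0, with 2787 genes at an unadjusted p under 0.05. The split between directions is relative to the scaling of the libraries. The values above use TMM scaling, which sets most genes near 0 (median log2 change -0.05). With scaling to total gene counts the median moved to -0.31, with 923 genes higher (5.46%) and 4261 lower (25.2%), so the share of higher calls went from 53.5% to 17.8%.

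**Figure D1:**
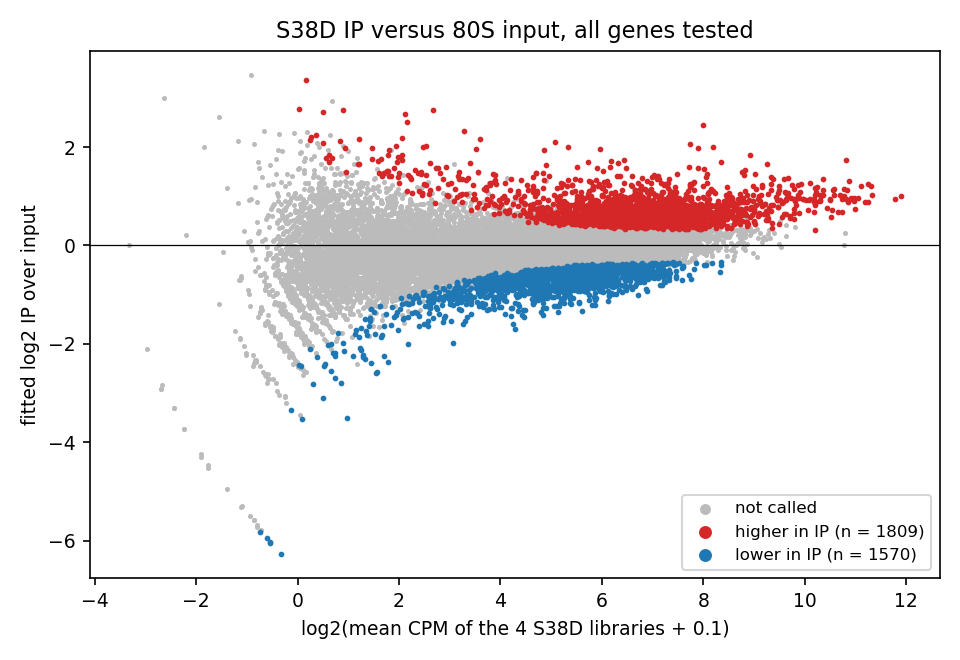
Fitted log2 change of S38D IP over S38D input (vertical axis) against log2 of the mean CPM of the 4 S38D libraries plus 0.1 (horizontal axis), 1 point a gene, for 16920 genes. The 1809 genes that rose (red) extend to the highest levels, whereas the 1570 that fell (blue) thin out there, and streaks at the lower left are genes with very few IP reads, whose fitted values have no firm lower bound.

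The direction was the same in both S38D fractions for every called gene, 1809 of 1809 and 1570 of 1570, a count that the paired test itself favours. Among all genes tested, 6039 (35.7%) were higher in both fractions and 7084 (41.9%) lower in both. A stricter description asks that the pair of IP libraries lie wholly above or below the pair of inputs. That held for 1768 of the genes that rose and 1498 of those that fell, beside 4352 (25.7%) and 5032 (29.7%) of all genes tested.

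Among genes with a mean of at least 5 CPM and no overlap between S38D IP and input libraries, 1719 rose and 1421 fell. The 2 with the largest change in each direction are given with their values in every S38D library. The tenth-largest log2 changes on the same ranking were 2.00 and -1.54. ENSG00000099866.10 stood at 2.41 and 0.798 CPM in the S38D inputs and at 15.6 and 6.11 CPM in the S38D IP libraries. These rest on 22 and 7 input reads and on 63 and 20 IP reads. The inputs of ENSG00000099866.10 lay below 5 CPM, so it met the 5 CPM rule only through the IP libraries. That favours genes high in the IP, so its place at the top of the ranking is partly set by the rule. Both IP values lay above both input values, which the rule required, and fraction 1 was the higher in input and IP alike. The fitted log2 change was 2.76 (SE 0.37, n = 2 fractions, adjusted p = 0.0015 in edgeR's quasi-likelihood test with Benjamini-Hochberg adjustment), and the fractions taken singly gave 2.56 and 2.55.

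ENSG00000132467.2 was the better measured of the genes that rose. It stood at 74.0 and 82.4 CPM in the S38D inputs and at 354 and 513 CPM in the S38D IP libraries, with 1428 and 1679 IP reads. The inputs were close together, and each IP library was several times above them. The fitted log2 change was 2.45 (SE 0.25, n = 2 fractions, adjusted p = 0.00043 by the same test), a 5.47-fold rise, with 2.26 and 2.64 in the separate fractions.

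ENSG00000261366.1 had the largest fall among the genes that met this rule; called genes below 5 CPM had larger fitted falls and are not ranked here. Its inputs stood at 11.1 and 15.4 CPM and its IP libraries at 2.23 and 4.59 CPM, with 9 and 15 IP reads. Those IP values lay below 5 CPM, so this gene met the rule through its inputs. The IP values lay wholly below the inputs, which the rule required, with a log2 change of -1.98 (SE 0.29, n = 2 fractions, edgeR adjusted p = 0.0023). ENSG00000169570.5 went from 25.2 and 34.0 CPM in the inputs to 6.20 and 12.5 CPM in the IP libraries. Its log2 change was -1.70 (SE 0.20, n = 2 fractions, edgeR adjusted p = 0.00084), and it was -1.97 in fraction 1 and -1.42 in fraction 2. The rule also fixed that both genes were lower in the IP of each fraction. Both genes stood higher in fraction 2 than in fraction 1 before and after the IP. Without fraction 2 none of the 4 genes passed the test (edgeR adjusted p from 0.080 to 0.10), and without fraction 1 ENSG00000099866.10 (0.072) and ENSG00000261366.1 (0.067) did not.

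**Figure D2:**
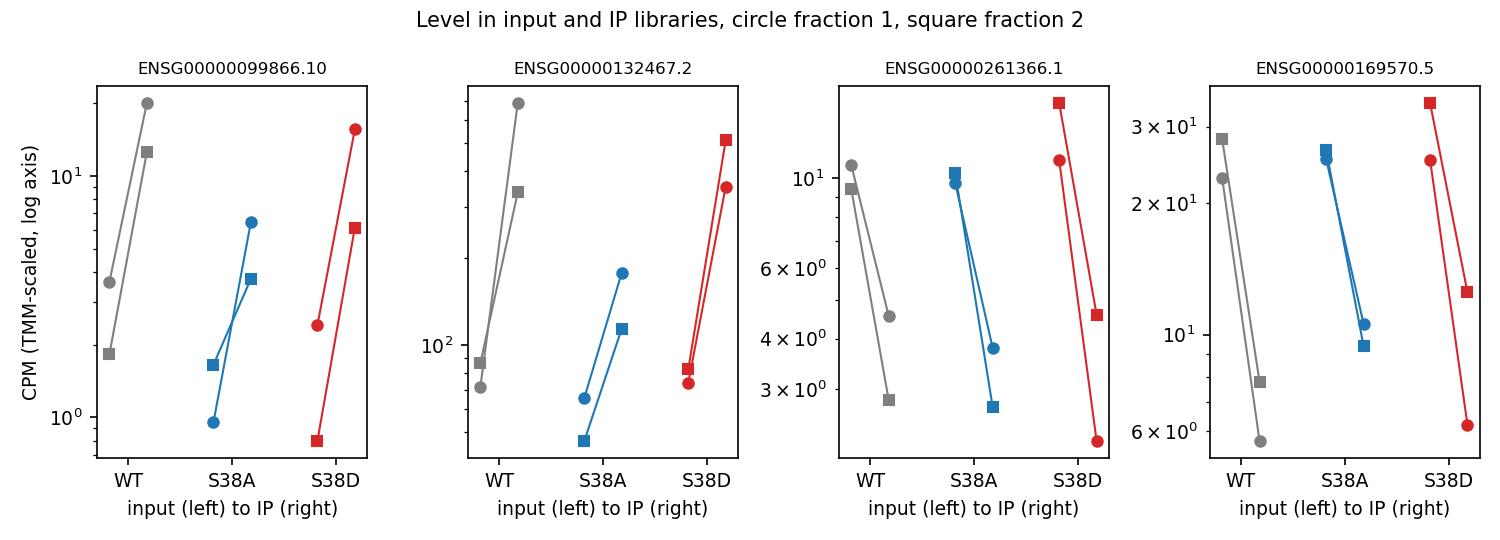
CPM (TMM-scaled, log axis) of the 4 genes in all 12 libraries, with a line from the input to the IP library of each fraction (circle, fraction 1; square, fraction 2) for WT (grey), S38A (blue) and S38D (red). In S38D, ENSG00000132467.2 goes from 74.0 and 82.4 CPM to 354 and 513 CPM, and every line of a gene runs in the same direction in all 6 fractions.

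The 4 genes moved the same way in the other forms of the protein. ENSG00000132467.2 stood at 71.5 and 86.5 CPM in the WT inputs and at 690 and 338 CPM in the WT IP libraries. In S38A it stood at 65.5 and 46.5 CPM in the inputs and at 178 and 114 CPM in the IP libraries. The S38D IP values fell between those of WT, and above both S38A values. The change was larger in S38D than in S38A by 1.08 on the log2 scale (95% interval 0.33 to 1.83, unadjusted p = 0.0091 in edgeR's quasi-likelihood test). That gene was 53rd by p among all genes, and the adjusted p was 1.00. Against WT its difference was -0.17 (95% interval -0.92 to 0.58, edgeR adjusted p = 0.99). For ENSG00000099866.10 the differences were 0.17 from WT (-0.94 to 1.28) and 0.85 from S38A (-0.41 to 2.10). For ENSG00000261366.1 they were -0.48 (-1.5 to 0.54) and -0.35 (-1.28 to 0.59), and for ENSG00000169570.5 0.21 (-0.48 to 0.90) and -0.32 (-0.93 to 0.29). None of these 8 differences passed adjustment over all genes in the fit of all 12 libraries, and the widest interval reaches 2.10 on the log2 scale. The prior degrees of freedom give the weight of a spread shared over all genes. They were 7.24 with all libraries, 89.3 and 92.3 without WT replicate 1 and 2, 262 without WT and infinite with no filter. Small p-values in those fits lean on that shared spread, and whether it sets the calls was not tested. For ENSG00000132467.2 the call changed with the libraries and the filter of the fit. Its difference from S38A stayed at 1.08 without WT replicate 1, without WT replicate 2 and with the S38A and S38D libraries only, and passed in each (edgeR adjusted p = 3.3e-10, 3.1e-10 and 9.3e-14). It also passed with no filter (1.06, edgeR adjusted p = 3.1e-05), and over all alternatives it ran from 0.89 to 1.27. Its difference from WT was 0.49 without WT replicate 1 (edgeR adjusted p = 0.125) and -0.82 without WT replicate 2 (8.1e-06), so its direction and call depended on which WT fraction was used.

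The S38D fractions agreed closely for genes with many reads. Across the 8460 genes above the median level in the WT and S38A inputs, log2 IP over input in fraction 1 and in fraction 2 correlated at r = 0.911. Across all 16920 genes r was 0.578. These are correlations across genes, which are not independent replicates, and both fractions share a scaling and a line. In the more abundant genes the spread (SD) of log2 IP over input was 0.422 in fraction 1 and 0.491 in fraction 2, 1.16 times as wide. The spread between the fractions of one gene was 0.145 in these genes and 0.391 over all genes. Each S38D fraction also followed the WT and S38A fractions, with r from 0.797 to 0.874 over 8 pairs in the more abundant genes. Agreement did not follow the form throughout: WT fraction 2 correlated with S38A fraction 1 at 0.923, above the 0.911 between S38D fractions, and with WT fraction 1 at 0.695.

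Spike-ins showed a spread of similar size. For the 41 spike-ins with at least 20 reads in each S38D library, the share among spike-in reads was compared between IP and input. The log2 ratio ranged from -1.37 to 0.75 in S38D fraction 1 and from -1.40 to 0.80 in fraction 2, with SDs of 0.467 and 0.487. The median standard error expected from read counts was 0.14. The same spike-ins deviated in both S38D fractions (r = 0.941 across 41 spike-ins), and they did so in the WT and S38A fractions (r from 0.733 to 0.941 with an S38D fraction). The more abundant genes had SDs of 0.422 and 0.491 on the same scale. The part of this library-wide difference between IP and input in the gene changes was not tested.

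**Figure D3:**
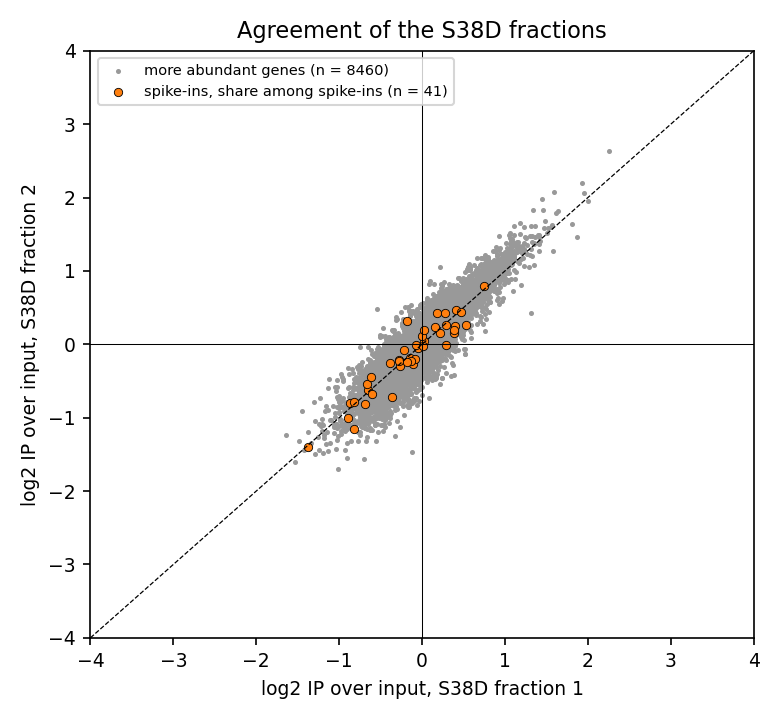
Log2 IP over input in S38D fraction 1 (horizontal) against S38D fraction 2 (vertical), for the 8460 more abundant genes (grey, TMM-scaled) and 41 spike-ins (orange, each as its share of spike-in reads). Points follow the dashed line of equality, with r = 0.911 for the genes and 0.941 for the spike-ins, and the spike-ins span from about -1.4 to 0.8.

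RNAs that were abundant in the fractions took a larger share of the S38D IP. Genes were ranked by their mean CPM in the WT and S38A inputs, libraries that take no part in the S38D ratio, and cut into 10 classes of 1692. In the most abundant class (123 to 2761 CPM) 617 genes rose and 131 fell, 44.2% of the class against 20.0% of all genes tested. Its median log2 change was 0.25, with 0.23 in fraction 1 and 0.27 in fraction 2. The next class had 307 genes higher and 218 lower and a median of 0.06. The balance then turned: in the class between 30.2 and 43.9 CPM 147 genes rose and 248 fell, with a median of -0.06. In the 4 classes below 19.0 CPM the medians lay between -0.20 and -0.14. The lowest class had 36 genes higher and 6 lower. Its median SE of 0.67, against 0.11 in the most abundant class, leaves smaller changes undetectable there. Its genes averaged at most 1.76 CPM in the WT and S38A inputs. Some could therefore pass the filter only through reads in other libraries, IP libraries included. That favours genes high in the IP, so the split of calls in this class cannot be read as a direction.

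The order of the classes was the same with scaling to total counts, but the level was not. The median of the most abundant class was then -0.02 and that of the lowest class -0.39, beside -0.31 for all genes. The most abundant class stood 0.30 above the median of all genes with either scaling. With total counts 362 of its genes were higher (21.4%, against 5.46% of all genes) and 394 lower (23.3%, against 25.2%). Spike-ins ran the opposite way: the 21 more abundant of them had medians of -0.22 and -0.23 in the S38D fractions, and the 20 less abundant 0.09 and 0.13. In the most abundant class the median was 0.23 in WT and 0.15 in S38A.

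**Figure D4:**
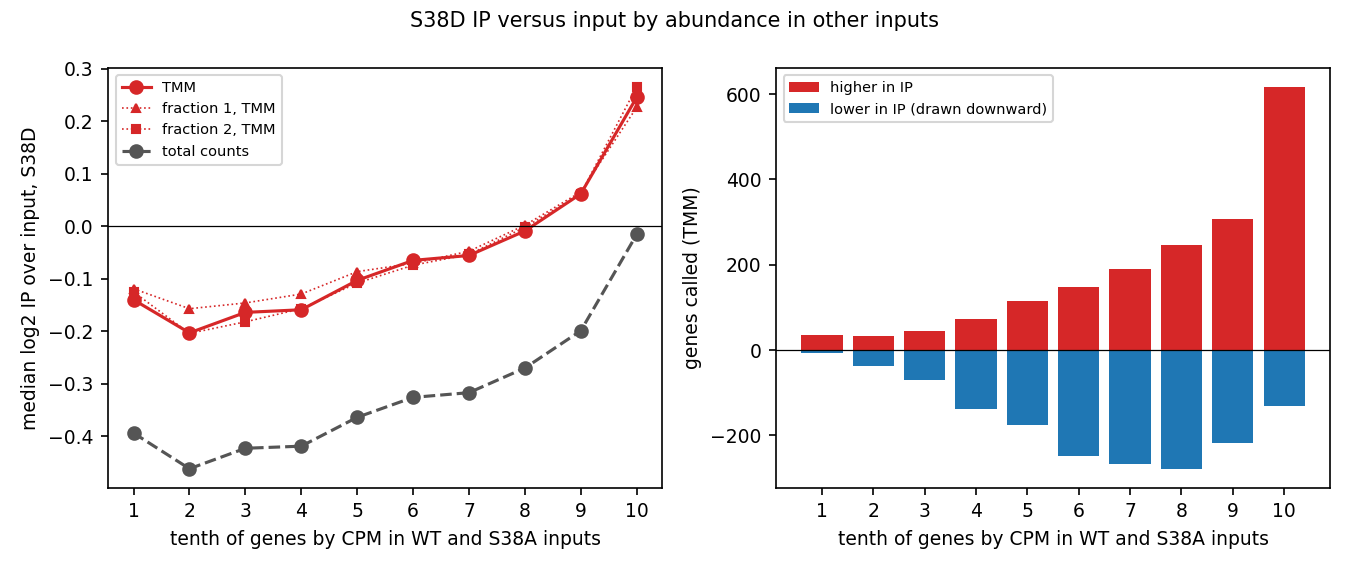
Left, median log2 IP over input in S38D for 10 classes of 1692 genes ordered by CPM in the WT and S38A inputs, with TMM scaling (red; dotted, each fraction) and with total counts (grey). Right, genes called higher (red) or lower (blue, drawn downward) in each class with TMM scaling; the most abundant class holds 617 higher and 131 lower genes.

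The same shift appears in the composition of the libraries without any fit. The 100 most abundant genes of each library held 9.88% and 10.0% of gene reads in the S38D inputs and 15.2% and 16.1% in the S38D IP libraries. The gains were 5.28 and 6.05 percentage points, beside 5.28 and 5.2 in WT and 2.90 and 2.22 in S38A. The 1000 most abundant genes held 33.6% and 33.8% in the inputs and 41.8% and 43.4% in the IP. With 1 fixed set of 100 genes, the most abundant in the WT and S38A inputs, the S38D share went from 9.85% and 9.99% to 14.6% and 15.3%. With 2 pairs, an exact paired permutation test cannot give a two-sided p under 0.5, so these shares carry no test.

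Fewer genes were detected in the S38D IP libraries, 21221 and 20661, than in the inputs, 23843 and 24100. After each library was thinned to 3695441 reads the numbers were 20769 and 20661 against 21452 and 21535. At that depth 594 genes were seen in both inputs and in neither IP library, and 256 in both IP libraries and in neither input. The highest summed count among genes absent from the IP was 15 reads in the 2 thinned inputs, and among genes absent from the inputs 8 reads in the 2 thinned IP libraries. These genes lie near the limit of detection at this depth.

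The change seen in S38D was shared by the WT protein for most genes. In WT, 2366 genes rose and 2452 fell, 28.5% of those tested. Of the genes that rose in S38D, 1498 also rose in WT (82.8% of the S38D genes, 63.3% of the WT genes), and of those that fell, 1279 also fell in WT (81.5% and 52.2%). In S38A, 2079 genes were called (12.3%), 1001 higher and 1078 lower. Of the genes that rose in S38D, 803 also rose in S38A (44.4% of the S38D genes, 80.2% of the S38A genes), and 839 of those that fell also fell (53.4% and 77.8%). No gene called in S38D was called in the opposite direction in WT or S38A. All forms entered 1 fit and share its estimate of spread. The numbers of calls move with which libraries that estimate includes, so a higher count in one form does not show a larger change there.

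Values of the S38D genes in each fraction are given in place of counts. The 1809 genes that rose in S38D had medians of 0.63 and 0.73 in the S38D fractions that chose them, 0.69 and 0.56 in WT and 0.43 and 0.47 in S38A. The 1570 that fell had medians of -0.61 and -0.72 in S38D, -0.75 and -0.72 in WT and -0.44 and -0.56 in S38A. Since S38D chose these genes, its own medians are a description. In the 4 WT and S38A fractions, 97.7% to 99.5% of the genes that rose were above 0, beside 45.4% to 50.1% of all genes tested. In the same fractions 97.5% to 99.2% of those that fell were below 0, beside 49.9% to 54.6% of all genes tested. The reverse choice took the genes from the WT calls in place of the S38D calls. The S38D libraries still entered the filter, scaling and estimate of spread behind those WT calls. The genes that rose in WT had medians of 0.56 and 0.65 in the S38D fractions and 0.40 and 0.40 in S38A. Those that fell in WT had -0.46 and -0.53 in S38D and -0.38 and -0.46 in S38A. Of the genes that rose in WT, 98.9% had the same sign in S38D, beside 80.3% of all genes tested.

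**Figure D5:**
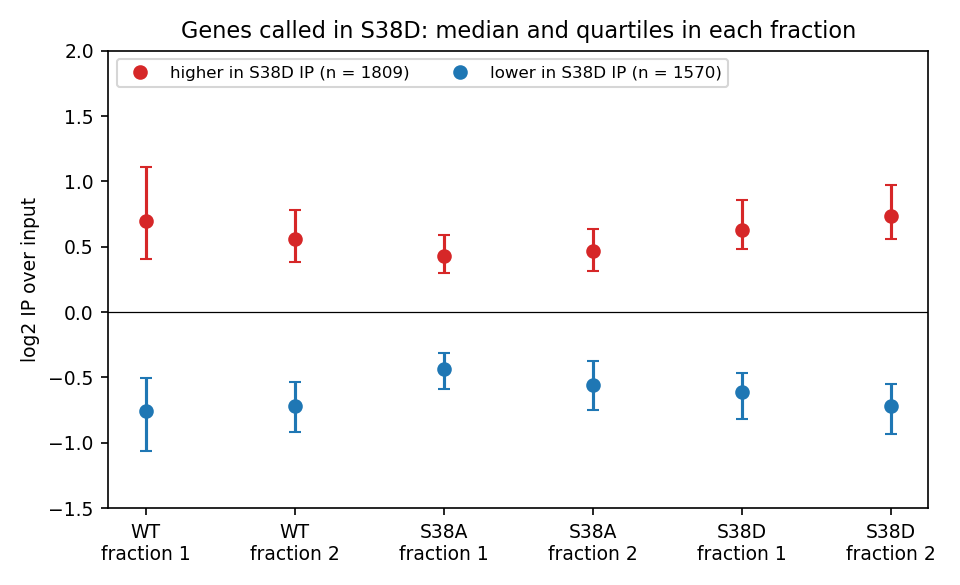
Median (point) and quartiles (bars) of log2 IP over input in each of the 6 fractions, for the 1809 genes that rose (red) and the 1570 that fell (blue) in S38D. Medians of the red genes are 0.63 and 0.73 in S38D, 0.69 and 0.56 in WT and 0.43 and 0.47 in S38A; the S38D values were used to choose the genes.

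The difference between S38D and the other forms was then tested directly, gene by gene, as an interaction of form with IP. For S38D against WT 0 genes (0%) passed at an adjusted p under 0.05 in edgeR's quasi-likelihood test, with 460 at an unadjusted p under 0.05 where chance gives 846. DESeq2 and voom also called 0. For S38D against S38A 0 genes (0%) passed, with 578 at an unadjusted p under 0.05, and DESeq2 and voom called 0. The lowest adjusted p was 0.99 and 1.00. The median SE of a difference was 0.25 against WT and 0.24 against S38A, and 0.19 and 0.18 in the more abundant genes. These comparisons share the S38D libraries, so they are not independent of each other.

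These counts of 0 changed with the libraries and the filter of the fit. With all libraries and no filter, 1 gene was called against WT and 26 against S38A. The spread of log2 IP over input in the more abundant genes was 0.335 and 0.392 in the S38A fractions and 0.422 and 0.491 in the S38D fractions. It was 0.666 in WT fraction 1 and 0.480 in WT fraction 2. The WT fractions entered the common estimate of variance, and whether their spread sets these counts was not tested. Leaving out 1 WT fraction leaves WT with a single input and IP pair, so the spread then comes from S38A and S38D and WT is assumed to vary as they do. Leaving out WT replicate 1 gave 405 genes that differed between S38D and S38A, 366 of them higher in S38D, and leaving out WT replicate 2 gave 401, 362 of them higher. With the S38A and S38D libraries alone, 429 genes were higher and 51 lower in S38D than in S38A in IP over input, among 16717 genes tested (2.87%). The median difference was 0.49 among the 429 and -0.54 among the 51. Ratios in the S38A fractions were narrower than those in S38D over the more abundant genes. The S38A IP libraries were also deeper, with 6150315 and 7430881 gene reads against 4390785 and 3695441 in S38D. The part of either in these calls was not tested, so the 429 genes are not shown to be gains particular to S38D. Scaling to total counts moved the median difference of all genes from -0.02 to -0.16, and 146 genes were then called higher and 282 lower, so the split is relative to the scaling. For S38D against WT, with the remaining WT pair as the sole WT value, 59 genes were called without WT replicate 1 and 1486 without WT replicate 2.

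Because the study concerns mitosis, markers of cell cycle phases were described. The lists come from published marker pairs keyed by Ensembl identifier. G1 markers are highest in cells before DNA replication, S markers during it, and G2M markers in cells preparing for or passing through division. Of 239 G1 markers tested in S38D, 47 rose and 23 fell (19.7% and 9.62%, beside 10.7% and 9.28% of all genes), with a median log2 change of 0.18, or 0.14 and 0.18 in the separate fractions. Of 251 S markers, 54 rose and 25 fell, with a median of 0.02. Of 208 G2M markers, 34 rose and 20 fell, with a median of 0.01. The median of all genes was -0.05.

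These lists hold abundant RNAs. Their median level in the WT and S38A inputs was 66.9, 70.0 and 63.0 CPM, beside 30.2 CPM for all genes tested. The share of genes called ran from 2.48% in the lowest class to 44.2% in the most abundant. All genes are therefore not a background matched for level. The class between 60.5 and 82.5 CPM had a median of -0.01 in S38D, and 247 of its 1692 genes rose and 278 fell. With total counts its median was -0.27, with 108 genes higher and 654 lower. Scaling to total counts moves all genes down together, so the medians are also set against that of all genes, which is not matched for level. The G1 median stood 0.23 above it with either scaling, the S median 0.07 and the G2M median 0.06. With total counts the medians themselves were below 0, at -0.08, -0.24 and -0.25, beside -0.31 for all genes. With that scaling 25 G1 markers were higher and 58 lower (10.5% and 24.3%), 26 and 73 of the S markers (10.4% and 29.1%) and 15 and 56 of the G2M markers (7.21% and 26.9%), beside 5.46% and 25.2% of all genes. The medians in WT were 0.10, 0.05 and 0.06, and in S38A 0.09, 0.04 and -0.01. In the test of the difference in the fit of all 12 libraries, 0 of 16920 genes passed against WT or S38A. No marker of any phase could therefore be among them, and this says nothing about the markers as a group. Markers were not counted in the fits that did call differences.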

How the data were processed

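Each library's table, as the authors deposited it, gives whole read counts for 57820 Ensembl gene identifiers and for 92 ERCC spike-ins. The submitters' processing notes list bcl2fastq 2.16.0.10, STAR 2.4.2a, DESeq2 and the hg19 build. The read counter, annotation and strand setting were not given in the sources used here. Counts are therefore uncertain for genes that overlap, lie antisense or have a near-identical copy. The reference used here (59792 genes) carries 0 Ensembl identifiers, so 0 identifiers matched and 37 lists of 1083 symbols could not be used. Groups and numbers came from the titles, since the genotype field gives number 1 for both S38D replicates.

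Counts without ERCC rows went into edgeR 4.0.16 (R 4.3.3) with filterByExpr at a minimum count of 10, TMM scaling, glmQLFit and glmQLFTest in 1 fit of all 12 libraries with the fraction as a block. This left 3 residual and 7.24 prior degrees of freedom and a coefficient of variation of 10.3%. Benjamini-Hochberg adjustment was made within each comparison. The standard error was the log2 change divided by the square root of F, and intervals used the t distribution with both degrees of freedom. Log2 ratios of single fractions used a prior count of 2. Per the labels' protocols, input and IP of a number come from the same fraction, and same-numbered libraries deviated together (r = 0.54 for S38D, 0.28 for WT and 0.64 for S38A across genes), so the fit is paired. Chi-square per degree of freedom between S38D replicates was 7.62 (input) and 5.39 (IP), so none were counted as 1.

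Named genes were to have adjusted p under 0.05, a symbol, a mean of at least 5 CPM and no overlap of IP and input, ranked by change; the symbol was dropped and 2 each way are printed. Cell cycle lists came from scran 1.30.0 marker pairs (at least 20 pairs, a share of at least 0.8 as the higher partner, 1 phase). Spike-in shares had 0.5 added to each count. Members and lists were chosen with earlier results of these data known. The fit was tested on simulated counts. Alternatives were no block, RLE, total counts, DESeq2 1.42.0, voom in limma 3.58.1, other filters, other sets of libraries, each fraction left out, and thinning.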

Additional observations from a re-analysis of the deposited data

Results flagged for a closer look

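Spike-in reads stand outside the gene comparisons and were far more frequent in the S38D IP libraries than in the inputs. They made up 3.79% of all reads in S38D IP 1 and 5.18% in S38D IP 2, 10.8 and 15.7 times the share in the matched inputs. The same ratio was 46.7 in WT fraction 1, whose input had the lowest spike-in share of all inputs (0.116%). It was 5.31 in WT fraction 2, and 6.28 and 6.80 in the S38A fractions.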

How the results depend on the processing

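For S38D IP versus input, the 3379 calls became 3397 with RLE size factors, 3308 with voom, 4055 with no filter and 3385 at a mean CPM of at least 10. The calls numbered 824 with no replicate block, 5184 with total counts, 2000 with DESeq2 and 6578 with only the 4 S38D libraries. Leaving out 1 library pair at a time gave 0 to 6423 calls: 0 without S38D replicate 2, 234 without S38D replicate 1, 1950 and 2136 without an S38A replicate and 6423 without either WT replicate. Alternatives chosen after seeing the data gave 2876 calls after thinning to equal depth, 6494 with the S38A and S38D libraries only and 1965 with the WT and S38D libraries only. For S38D against WT the 0 calls became 1 with no filter and 0 to 1486 on leaving out 1 replicate. For S38D against S38A they became 26 with no filter, 480 with the S38A and S38D libraries only and 0 to 405 on leaving out 1 replicate. The estimated prior degrees of freedom were 7.24 with all libraries, 43.8 with S38D alone, 89.3 and 92.3 without a WT replicate and 262 without WT. They were 7.29 and 5.93 without S38A replicate 1 and 2, and infinite with no filter, where 4055 genes were called. The cause of the changes in the number of calls was not tested. Of the single-gene values under alternatives 171 stayed on their side of the threshold, 6 lost and 5 gained the call. Called values changed sign in 0 cases, and differences that were not called did so in 5 cases, all against WT and for 3 of the 4 genes. The median of the most abundant class was negative in 1 of 17 settings, that of G1 markers in 1, of S markers in 3 and of G2M markers in 5. Depth limits the genes below 19.0 CPM, and fraction 2, with 3695441 IP reads, is the shallower.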
